A study of Mus musculus with 6 samples.

Results

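*Hnrnpl* and its 4 PTB-like paralogs, *Hnrnpll*, *Ptbp1*, *Ptbp2* and *Ptbp3*, were read as a family in activated splenic B cells of mice with and without hnRNPL. The members were the rows of the deposited table that carry these 5 gene symbols, out of 55421 genes. All 5 passed the filter of a mean of at least 10 normalized counts, which left 17640 genes for testing. RNA-seq was done on 3 WT and 3 hnRNPL-deficient libraries, each from a different mouse of the C57BL6/J background. The WT mice carried *CD21-cre* and the hnRNPL-deficient mice carried *CD21-cre* together with 2 floxed *Hnrnpl* alleles (*Hnrnpl* F/F). In the *CD21-cre* line Cre is driven by regulatory sequence of CD21, the complement receptor encoded by *Cr2*, so that deletion occurs mostly in mature B cells. All mice also carried the mT/mG reporter, and GFP+ cells were sorted after 24 h with LPS at 5 μg/ml and IL-4 at 5 ng/ml. GFP reports that Cre was active in a cell and does not report loss of *Hnrnpl* itself. The authors used male and female mice over 6 weeks of age as available, and the sex of each sequenced mouse is not given in the sources used here.

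The proteins of this family bind RNA through RNA recognition motifs and are best known as repressors and activators of alternative splicing. hnRNPL and hnRNPLL recognize CA-rich RNA, whereas PTBP1, PTBP2 and PTBP3 recognize pyrimidine-rich RNA. Members limit themselves and each other: an excess of protein shifts splicing of a family transcript to a form with an early stop codon, which is removed by nonsense-mediated decay. hnRNPL is known to act in this way on its own transcript and on that of *Hnrnpll*, and PTBP1 on its own transcript and on that of *Ptbp2*. Loss of hnRNPL therefore raises the question whether a paralog is expressed at a higher level in its absence. The values below are counts per gene and do not separate productive from decay-prone isoforms.

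The exons that annotation (GENCODE, GRCm38) places at these switches are shown because they are the parts of the family transcripts that gene-level counts cannot resolve. In *Hnrnpl* and *Hnrnpll* the exon is included in the decay transcript, and the capitals mark the TGA stop codon that it brings into frame.

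*Hnrnpl*, chr7:28817335-28817404, plus strand, 70 bases: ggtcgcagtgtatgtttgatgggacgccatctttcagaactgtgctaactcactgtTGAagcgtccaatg

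*Hnrnpll*, chr17:80044940-80045022, minus strand, 83 bases: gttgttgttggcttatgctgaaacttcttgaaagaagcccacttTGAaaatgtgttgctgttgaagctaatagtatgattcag

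In *Ptbp1* and *Ptbp2* the exon is exon 10 of the coding transcript, and it is skipped in 2 annotated decay transcripts of each gene. Its length of 34 bases is not a multiple of 3, so skipping moves the reading frame. Capitals in these exons mark the 26 bases that are identical between *Ptbp1* and *Ptbp2*, which are 76.5% of the exon.

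*Ptbp1*, chr10:79862014-79862047, plus strand, 34 bases: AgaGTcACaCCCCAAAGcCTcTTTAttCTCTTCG

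*Ptbp2*, chr3:119724612-119724645, minus strand, 34 bases: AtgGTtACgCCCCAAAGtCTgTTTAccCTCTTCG

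*Ptbp3* has a matching exon of 34 bases, its exon 11, with 22 bases identical to the *Ptbp1* exon, here in capitals. No annotated *Ptbp3* decay transcript skips it.

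*Ptbp3*, chr4:59485339-59485372, minus strand, 34 bases: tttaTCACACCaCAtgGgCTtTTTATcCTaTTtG

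The family splits into 2 branches by protein sequence. hnRNPL, with 586 residues, was identical to hnRNPLL, with 591 residues, at 57.3% of aligned positions. PTBP1 shared 79.6% of aligned positions with PTBP3 and 74.4% with PTBP2, and PTBP2 shared 73.1% with PTBP3. Between the branches identity lay between 30.9% and 33.6%. The genes lie on 5 chromosomes: *Hnrnpl* at chr7:28808541-28822266 and *Ptbp1* at chr10:79854427-79864771 on the plus strand, and *Hnrnpll* at chr17:80029487-80062334, *Ptbp2* at chr3:119718742-119784466 and *Ptbp3* at chr4:59471868-59549364 on the minus strand. None of the 5 shares exonic sequence on its own strand with another gene, and reads were counted by strand.

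Between 40395186 and 75180749 reads fell on genes per library, with the fewest in hnRNPL-deficient library 3. Genes were called at an adjusted p under 0.1 and a change of at least 1.5-fold in limma, and over all genes tested 7.28% were called higher and 4.08% lower. Of the 7 B cell markers, all were tested and 1 was called higher and none lower. The called marker was *Cr2*, whose deposited values averaged 4015 ± 1017 (SD, n = 3) normalized counts in WT and 7299 ± 2021 (SD, n = 3) in hnRNPL-deficient cells. The call was lost when WT library 2 or 3 or hnRNPL-deficient library 3 was left out, and with no mean-variance trend. Below the 1.5-fold limit, the groups also did not overlap for *Ms4a1*, with a log2 fold change of -0.40, and *Cd22*, with -0.55 (adjusted p = 0.0988 and 0.00987, limma). *Cr2* is also the gene whose regulatory sequence drives Cre, and the part of this difference in the results below was not tested. Among the activated B cell markers, *Cd80*, a costimulatory ligand gene, was called higher, at 115 ± 18.9 (SD, n = 3) normalized counts in WT and 1382 ± 273 (SD, n = 3) in hnRNPL-deficient cells. The defining markers of other cell types were at or near 0, apart from *Itgam* of myeloid and *Hbb-bt* of erythroid cells, which passed the filter. The summed level of 4 T cell markers ranged from 2.59 to 4.64 normalized counts in WT and from 3.03 to 9.02 in hnRNPL-deficient libraries. The 2 NK cell markers summed to 0 in WT and to 0.902 to 3.03 in hnRNPL-deficient libraries. *Ncr1* of NK cells and *S100a8* of myeloid cells were at 0 in all libraries. The 4 myeloid markers summed to 7.78 to 24.4 in WT and 12.3 to 21.6 in hnRNPL-deficient libraries. The 3 erythroid markers summed to 8.41 to 19.7 in WT and 38.8 to 57.5 in hnRNPL-deficient libraries, through *Hbb-bt*. *Hbb-bt* was called higher, with a fold change of 3.52 (adjusted p = 0.0235, limma), and the part of erythroid cells was not tested. Among 4 plasma cell markers, *Jchain* was called lower, at 84.1 ± 50.4 (SD, n = 3) in WT and 14.7 ± 8.23 (SD, n = 3) in hnRNPL-deficient cells, and its call was lost without WT library 1 or 2, without hnRNPL-deficient library 2 or 3, and at a mean of at least 50. The sum of all 4 ranged from 14221 to 16488 in WT and from 13373 to 16508 in hnRNPL-deficient libraries. Most of this sum is *Xbp1*, at 13882 ± 1133 (SD, n = 3) in WT and 13488 ± 1475 (SD, n = 3) in hnRNPL-deficient cells. It therefore says little about *Jchain*.

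*Hnrnpl* served as the check of the labels. Its normalized count was 24371, 25580 and 24174 in WT libraries 1, 2 and 3, and 2178, 1519 and 1297 in hnRNPL-deficient libraries 1, 2 and 3. Every hnRNPL-deficient library was far below every WT library. Relative to the WT mean, 8.82%, 6.15% and 5.25% of the *Hnrnpl* signal remained in the 3 hnRNPL-deficient libraries. The residual level varied more between mice than the WT level did, with a coefficient of variation of 27.5% against 3.08%. In bulk RNA, a small share of undeleted cells and a low level in every cell cannot be told apart. Which exons are removed from the floxed allele is not given in the sources used here, so reads from exons left on the deleted allele would be counted as well. The fold change was 0.0658 (95% interval 0.0501 to 0.0865, adjusted p = 2.23e-05, limma), and *Hnrnpl* was the 1 member called. Its call is read beside the 4.08% of all genes called lower.

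*Hnrnpll*, the closest relative of *Hnrnpl*, was the lowest member by far. Its normalized count was 52.2, 54.5 and 55.1 in WT libraries 1, 2 and 3, and 82.9, 52.5 and 57.6 in hnRNPL-deficient libraries 1, 2 and 3. One hnRNPL-deficient library stood above the others and the groups overlapped. These values rest on 42 to 92 reads per library. The fold change was 1.17 with a 95% interval from 0.764 to 1.78 (adjusted p = 0.629, limma). A rise above 1.78-fold and a fall below 0.764-fold lie outside this interval, which holds for this fit alone. Its log2 fold change was 0.22 ± 0.27 (SE). With DESeq2 it was 0.40 ± 0.38 (SE) on 5 libraries and 0.26 ± 0.32 (SE) on all 6, and with quantile normalization 0.09 ± 0.28 (SE). A larger rise is thus not excluded by the count-based fits.

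*Ptbp1* encodes the main PTB protein of most cells outside neurons. Its normalized count was 37944, 39410 and 36877 in WT libraries, and 33774, 36983 and 28975 in hnRNPL-deficient libraries 1, 2 and 3. The hnRNPL-deficient values lay at 88.7%, 97.1% and 76.1% of the WT mean, and 1 of them was inside the WT range. The fold change was 0.869 with a 95% interval from 0.726 to 1.04 (adjusted p = 0.291, limma). Thus an increase of *Ptbp1* beyond 1.04-fold lies outside the interval with the deposited scaling. This bound depends on the processing. The log2 fold change was -0.20 ± 0.11 (SE) here and -0.07 ± 0.09 (SE) with quantile normalization. It was -0.27 ± 0.14 (SE) with DESeq2 on 5 libraries.

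*Ptbp2* encodes the paralog that dominates in neurons and is kept low elsewhere. Its normalized count was 1470, 1912 and 1901 in WT libraries 1, 2 and 3, and 1424, 1856 and 3449 in hnRNPL-deficient libraries 1, 2 and 3. The third hnRNPL-deficient library alone was above the WT range, at 196% of the WT mean, while the other two were at 80.8% and 105%. The fold change was 1.19 with a 95% interval from 0.758 to 1.88 (adjusted p = 0.602, limma). Without hnRNPL-deficient library 3 the log2 fold change turned from 0.26 to -0.11, so the direction of the group mean was set by 1 mouse.

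*Ptbp3* encodes the paralog found mainly in blood-forming cells. Its normalized count was 67029, 53125 and 51132 in WT libraries 1, 2 and 3, and 65185, 49363 and 55607 in hnRNPL-deficient libraries 1, 2 and 3. Both groups held 1 high library and covered almost the same range. The fold change was 0.994 with a 95% interval from 0.787 to 1.26 (adjusted p = 0.977, limma). Its sign depended on the scaling, since the log2 fold change was -0.01 with the deposited values and 0.05 with equal library totals.

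**Figure D1:**
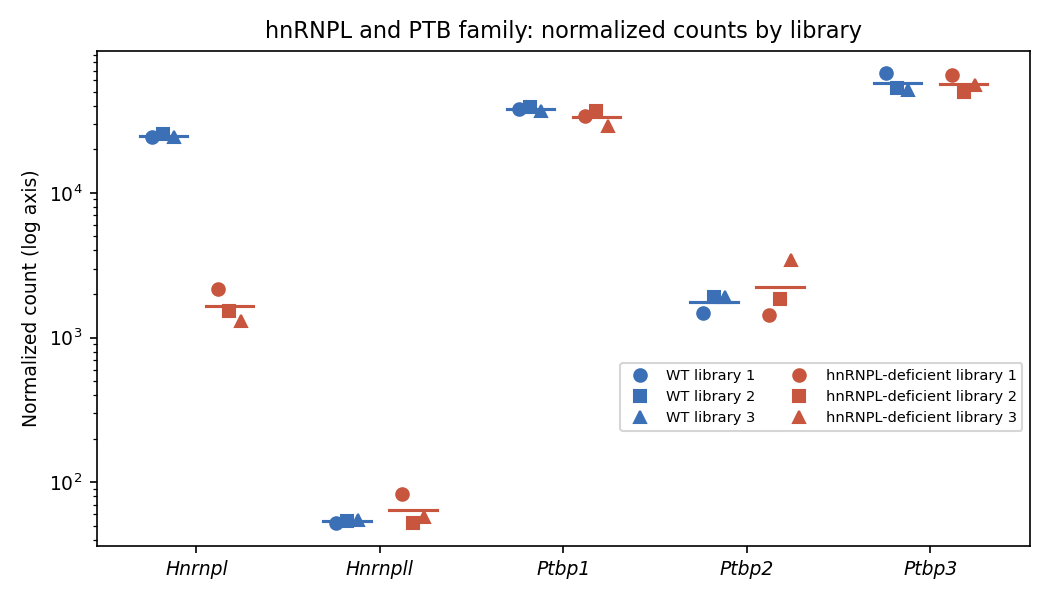
Normalized count of each family member on a log axis, with 1 point per library and a bar at the group mean. The 3 hnRNPL-deficient libraries lie between 1297 and 2178 for *Hnrnpl*, far below WT, whereas the groups overlap for the 4 paralogs and 1 hnRNPL-deficient library reaches 3449 for *Ptbp2*.

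The groups thus did not overlap for 1 of 5 members, *Hnrnpl*, and overlapped for all 4 paralogs. Over all genes tested, the groups did not overlap with higher values in hnRNPL-deficient cells for 17.7% and with lower values for 16.3%. The spread between mice differed among members. The WT coefficient of variation was 2.78% for *Hnrnpll*, 3.08% for *Hnrnpl* and 3.34% for *Ptbp1*, but 14.3% for *Ptbp2* and 15.2% for *Ptbp3*. In hnRNPL-deficient cells it was 47.6% for *Ptbp2*, 25.4% for *Hnrnpll*, 14.1% for *Ptbp3* and 12.1% for *Ptbp1*.

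Levels were compared between members per kb of exon union, the length covered by all annotated exons of a gene. In WT cells *Ptbp1* was at 8033 ± 268 (SD, n = 3) normalized counts per kb and *Ptbp3* at 7633 ± 1158 (SD, n = 3), and on this length these 2 did not differ beyond their spread. *Hnrnpl* followed with 4151 ± 128 (SD, n = 3) and *Ptbp2* with 192 ± 27.4 (SD, n = 3). *Hnrnpll* was at 4.62 ± 0.128 (SD, n = 3) normalized counts per kb. Among the 17615 tested genes with an annotated length, *Ptbp1*, *Ptbp3* and *Hnrnpl* ranked 458, 484 and 874 from the top in WT cells, *Ptbp2* ranked 8852 and *Hnrnpll* 16891. In hnRNPL-deficient cells *Hnrnpl* ranked 7563, whereas the ranks of *Ptbp1* and *Ptbp3* were 468 and 436.

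In hnRNPL-deficient cells *Ptbp3* was at 7583 ± 1065 (SD, n = 3) normalized counts per kb and *Ptbp1* at 7014 ± 850 (SD, n = 3), and again these did not differ beyond their spread. *Hnrnpl* at 280 ± 77.0 (SD, n = 3) and *Ptbp2* at 244 ± 116 (SD, n = 3) now overlapped. The ratio of *Ptbp2* to *Hnrnpl* per kb was 0.424, 0.793 and 1.73 in hnRNPL-deficient libraries 1, 2 and 3, against 0.0391 to 0.0510 in WT libraries. *Hnrnpll* remained the lowest at 5.51 ± 1.40 (SD, n = 3). The order of the 3 highest members depended on the length used. With the longest transcript, WT levels per kb were 12015 ± 401 (SD, n = 3) for *Ptbp1*, 9223 ± 284 (SD, n = 3) for *Hnrnpl* and 8329 ± 1263 (SD, n = 3) for *Ptbp3*. With the principal coding transcript, chosen after the data were seen, *Ptbp3* led with 16748 ± 2540 (SD, n = 3), followed by *Ptbp1* with 12243 ± 409 (SD, n = 3) and *Hnrnpl* with 11535 ± 355 (SD, n = 3). *Ptbp1* and *Ptbp3* thus differed beyond their spread in opposite directions under these 2 lengths, and no order between them is read here.

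The summed level of the 4 paralogs was 17131, 15630 and 14828 normalized counts per kb in WT libraries 1, 2 and 3, and 16002, 14608 and 13928 in hnRNPL-deficient libraries 1, 2 and 3. The groups overlapped, and the percent difference of the hnRNPL-deficient from the WT mean was -6.41% (two-sided exact permutation test, p = 0.4). With 3 against 3 libraries this test gives no p below 0.1. The difference was -2.51% without WT library 1, -9.37% without WT library 3, -10.1% without hnRNPL-deficient library 1, -3.51% without hnRNPL-deficient library 3 and -2.73% with equal library totals. With *Hnrnpl* added, the family level was 20013 ± 1170 (SD, n = 3) in WT and 15126 ± 1134 (SD, n = 3) in hnRNPL-deficient cells. The difference of -4888 normalized counts per kb comprised -3871 from *Hnrnpl* and -1017 from the paralogs together, and the groups did not overlap (two-sided exact permutation test, p = 0.1). Most of this difference is the deleted gene itself, so the test of the family level says little about the paralogs.

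**Figure D2:**
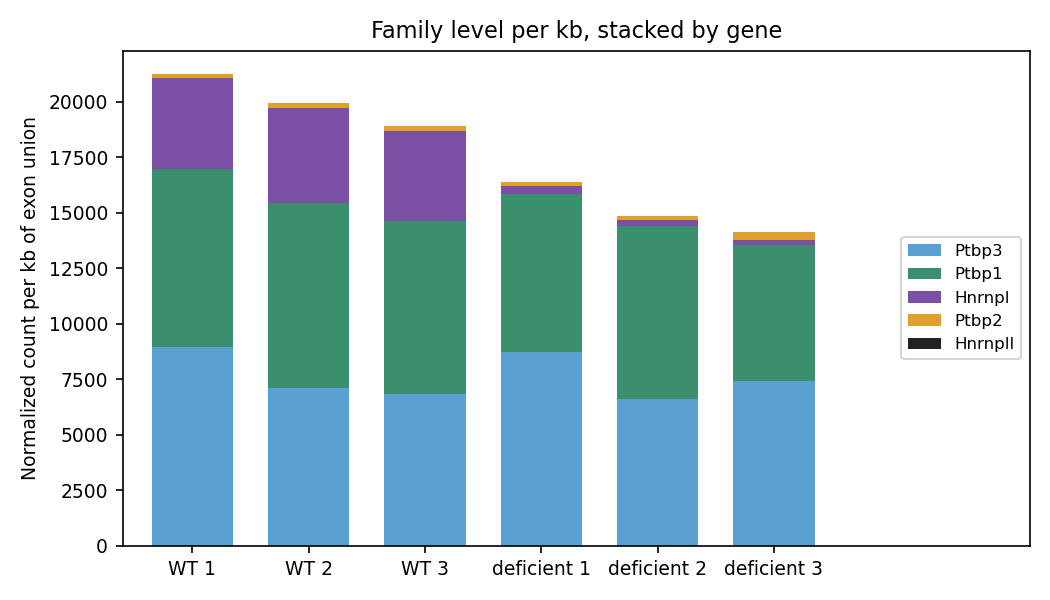
Normalized counts per kb of exon union in each library, stacked by gene, with bars starting at 0. The family level is between 18889 and 21225 in WT and between 14146 and 16368 in hnRNPL-deficient libraries, the *Hnrnpl* layer is thin in the latter, and *Hnrnpll* is too low to be seen.

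The composition of the family level was read as shares. The share of *Hnrnpl* was 20.8% ± 1.30 (SD, n = 3) in WT and 1.83% ± 0.362 (SD, n = 3) in hnRNPL-deficient cells. The share of *Ptbp1* was 37.7%, 41.7% and 41.2% in WT libraries and 43.5%, 52.5% and 43.2% in hnRNPL-deficient libraries, a difference of 6.20 percentage points (two-sided exact permutation test, p = 0.1). It was 3.16 points without hnRNPL-deficient library 2 and 12.5 points with the longest transcript. The share of *Ptbp3* was 38.0% ± 3.65 (SD, n = 3) and 50.1% ± 4.92 (SD, n = 3). Shares sum to a fixed total, so the loss of *Hnrnpl* raises the share of each other member at an equal level. Among the 4 paralogs alone, computed after the values were seen, *Ptbp1* held 50.8% ± 3.54 (SD, n = 3) in WT and 47.3% ± 5.32 (SD, n = 3) in hnRNPL-deficient cells, and the groups overlapped. The higher share of *Ptbp1* in the family is thus no sign of a higher level. The share of *Ptbp2* was 0.966% ± 0.184 (SD, n = 3) in WT and 1.66% ± 0.892 (SD, n = 3) in hnRNPL-deficient cells, and the groups overlapped. Between the 2 PTB proteins known to regulate one another, the *Ptbp1* level per kb exceeded that of *Ptbp2* 49.95-, 39.9- and 37.5-fold in WT libraries 1, 2 and 3, and 45.9-, 38.6- and 16.3-fold in hnRNPL-deficient libraries 1, 2 and 3. Only hnRNPL-deficient library 3 lay outside the WT range, with the lowest *Ptbp1* and the highest *Ptbp2* of the 6 libraries. This ratio was chosen after the values were seen and was not tested.

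**Figure D3:**
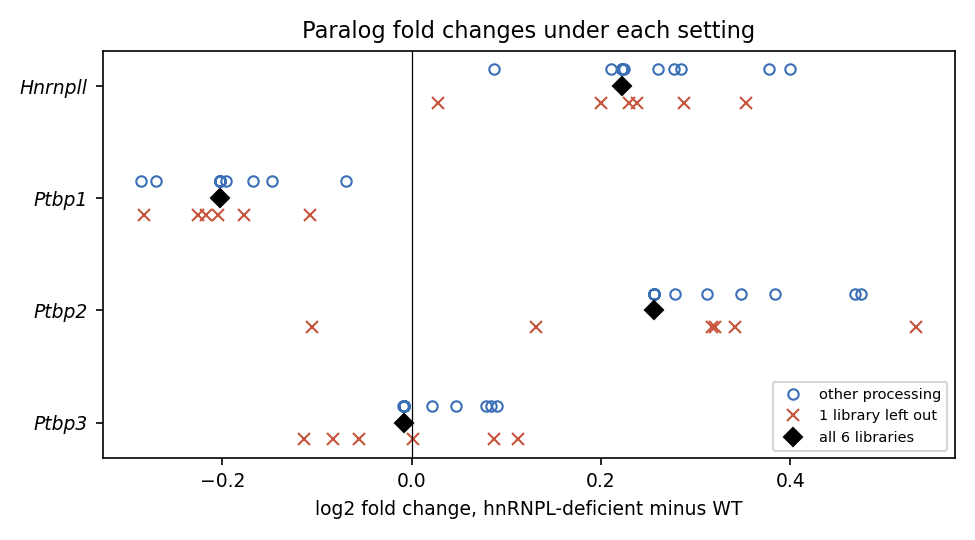
log2 fold change of the 4 paralogs, hnRNPL-deficient minus WT, with all 6 libraries (diamonds), under other processing (circles) and with 1 library left out (crosses). *Ptbp1* lies below 0 and *Hnrnpll* above 0 in each setting drawn, *Ptbp2* spans -0.11 to 0.53 when libraries are left out, and *Ptbp3* lies on both sides of 0.

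The other hnRNPs, RNA-binding proteins that coat nascent transcripts, were read beside the family. Of 24 genes, all tested, 2 were called lower and none higher, against 4.08% lower and 7.28% higher over all genes. Their median log2 fold change was -0.27, beside -0.03 over all genes tested, and 22 of 24 had a negative value. With quantile normalization the median was -0.16 and no hnRNP was called. *Hnrnpd*, which encodes the AU-rich element binding protein AUF1, was at 21682, 19088 and 17522 normalized counts in WT libraries and 12800, 12337 and 11707 in hnRNPL-deficient libraries. The groups did not overlap and the log2 fold change was -0.66 ± 0.11 (SE, adjusted p = 0.00703, limma). Its relative *Hnrnpdl* was at 11078, 12404 and 11208 in WT and 7156, 7897 and 7115 in hnRNPL-deficient libraries, with a log2 fold change of -0.65 ± 0.09 (SE, adjusted p = 0.00485, limma). Without WT library 1 the call of *Hnrnpd* was lost. Among the most abundant hnRNPs not called, the log2 fold change was -0.17 for *Hnrnpu*, -0.38 for *Hnrnpa1* and -0.33 for *Hnrnpa3*.

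**Figure D4:**
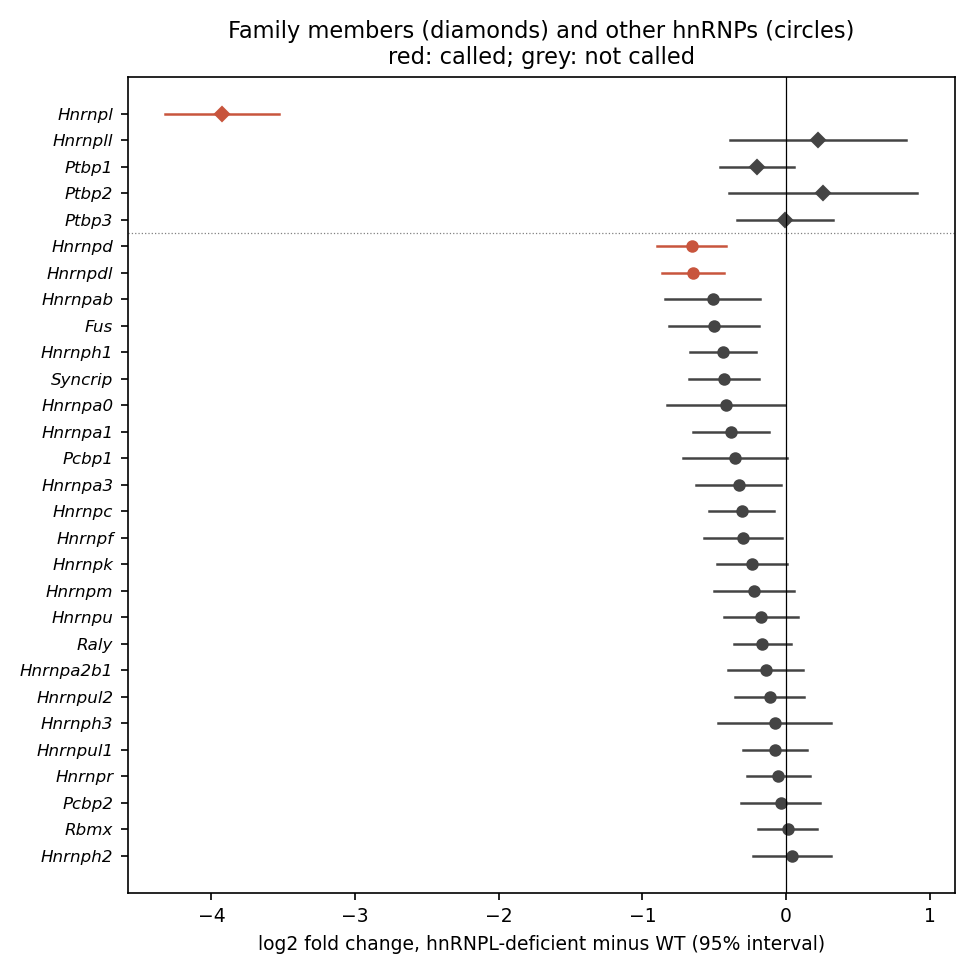
log2 fold change, hnRNPL-deficient minus WT, with its 95% interval from limma for the 5 family members (diamonds) and 24 other hnRNPs (circles), with called genes in red. *Hnrnpl* is at -3.93, the intervals of its paralogs include 0, and *Hnrnpd* and *Hnrnpdl* are the called genes among the other hnRNPs with the deposited scaling.

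Proteins known to work with or against the family were read next. Of 14 cofactors and competitors, 12 were tested and none was called, beside 7.28% called higher and 4.08% called lower over all genes tested. Their median log2 fold change was -0.17, beside -0.03 over all genes tested. The groups did not overlap for 6 of the 12. Over all genes tested this held with higher values in hnRNPL-deficient cells for 17.7% and with lower values for 16.3%. The log2 fold change of *Setd2*, whose histone methyltransferase product binds hnRNPL, was 0.20 ± 0.09 (SE, adjusted p = 0.203, limma). It was -0.06 for *Mbnl1* and -0.08 for *Celf1*, which encode competing splicing regulators. *Raver1*, a corepressor of PTB, was listed at 0 in all libraries, and 99.7% of its exonic sequence is shared on the same strand with *Gm38431*. The other untested gene, *Raver2*, was at 0.765 to 1.16 normalized counts in WT and 0.902 to 8.22 in hnRNPL-deficient libraries.

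All 8 nonsense-mediated decay factors were tested and none was called, beside 7.28% called higher and 4.08% called lower over all genes tested. Their log2 fold changes lay between -0.14 and 0.22 with a median of 0.02, beside -0.03 over all genes tested. *Smg1*, the kinase of the pathway, had a log2 fold change of -0.09, and the helicase gene *Upf1* one of 0.01.

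Transcripts known to be bound or spliced by the family were read for their gene-level counts. Of 5 hnRNPL targets, 4 were tested and none was called, beside 7.28% called higher and 4.08% called lower over all genes tested. *Ptprc*, which encodes CD45 and whose variable exons are repressed by hnRNPL, was at 42452 ± 3583 (SD, n = 3) normalized counts in WT and 47726 ± 4773 (SD, n = 3) in hnRNPL-deficient cells. *Bcl2*, which encodes an inhibitor of apoptosis, had a log2 fold change of 0.33 ± 0.11 (SE, adjusted p = 0.103, limma), and *Malt1* one of -0.08. *Nos3* was below the filter. Of 7 PTB targets, all tested, 2 were called higher and 1 lower, with a median log2 fold change of -0.09, beside 7.28% called higher, 4.08% called lower and a median of -0.03 over all genes. Nothing particular to PTB targets is read from these counts.

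*Fas*, the death receptor gene whose exon skipping is promoted by PTB, was at 267, 267 and 240.1 normalized counts in WT libraries and 511, 472 and 583 in hnRNPL-deficient libraries. The groups did not overlap, and the fold change was 2.01 (adjusted p = 0.00529, limma). *Dlg4*, which encodes the synaptic scaffold PSD-95, was at 66.1, 91.6 and 78.0 in WT and 149.7, 156.5 and 127 in hnRNPL-deficient libraries. Its fold change was 1.84 (adjusted p = 0.0398, limma), and the call was lost with edgeR on 5 libraries and when WT library 3, or the first or second hnRNPL-deficient library, was left out. *Src*, a tyrosine kinase gene, was at 157, 259 and 232 in WT and 86.5, 113 and 107 in hnRNPL-deficient libraries. Its fold change was 0.483 (adjusted p = 0.0301, limma), and the call was lost without WT library 2 or 3. *Pkm*, *Tpm1* and *Gabbr1* had log2 fold changes of -0.27, -0.09 and -0.19 and were not called.

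The genes next to each member were read in the same fit, since a deletion is made at 1 of these loci. Both nearest tested neighbours of *Hnrnpl* were called higher, beside 7.28% called higher and 4.08% called lower over all genes tested. *Rinl*, 9.58 kb away, was at 364, 406 and 374 normalized counts in WT libraries and 624, 628 and 513 in hnRNPL-deficient libraries, with a log2 fold change of 0.62 ± 0.15 (SE, adjusted p = 0.0302, limma). *Ech1*, 2.95 kb away on the other side and encoding an enzyme of fatty acid oxidation, was at 594, 782 and 621 in WT and 1108, 1150 and 905 in hnRNPL-deficient libraries. Its log2 fold change was 0.66 ± 0.16 (SE, adjusted p = 0.0301, limma). The next genes outward, *Sirt2* at -0.13 and *Lgals4* at -0.71, were not called. All 4 lie on the plus strand, as *Hnrnpl* does, and the part of the modified locus in these values was not tested.

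Of the 16 neighbours of the other members none was called, beside the same 7.28% higher and 4.08% lower over all genes. *Srsf7*, a splicing factor gene beyond *Hnrnpll*, had a log2 fold change of -0.54 ± 0.10 (SE, adjusted p = 0.0148, limma) but was under the 1.5-fold limit. For *Hnrnpll* the other 3 were *Atl2* at -0.07, *Gm6552* at -0.20 and *Galm* at 0.82. For *Ptbp1* they were *Palm* at 0.61, *E130317F20Rik* at 0.20, *Plppr3* at -0.49 and *Gm17134* at 0.02. For *Ptbp3* they were *Susd1* at 0.33, *Gm12527* at -0.68, *Hsdl2* at 0.28 and *E130308A19Rik* at 0.28. For *Ptbp2* they were *Gm19243* at -0.47, *Gm4332* at -0.50, *Gm43300* at 0.53 and *Gm42664* at 0.49.

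The last 2 of these lie within *Ptbp2* on the same strand and are counted separately from its exons. *Gm42664* was at 626, 718 and 775 normalized counts in WT libraries and 613, 841 and 1861 in hnRNPL-deficient libraries. *Gm43300* was at 66.1, 97.7 and 93.3 in WT and 87.4, 116 and 179.6 in hnRNPL-deficient libraries. As for *Ptbp2*, hnRNPL-deficient library 3 was the highest of the 6 libraries for both.

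The genes most like each member over the 6 libraries were found by Pearson's r of log2(normalized count + 1) among 13881 genes with a mean of at least 50. With 6 points, and with group and library depth shared by all genes, high values are common, and they are given as a description. For *Hnrnpl* they were *Oas1c*, *Wdr26* and *Map3k13* (r = 0.998, 0.998 and 0.996), which were all called lower. For *Ptbp1* they were *Nop9*, *Acly* and *Vipas39* (r = 0.999, 0.997 and 0.996). For *Ptbp3* they were *Ppp1cb*, *Mpc1* and *Ctss* (r = 0.999, 0.996 and 0.994). For *Hnrnpll* they were *Tmem185a*, *Gm25395* and *Igkv3-2* (r = 0.962, 0.955 and 0.949).

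For *Ptbp2* the most similar gene was *Mir155hg*, the host transcript of a microRNA induced on B cell activation (r = 0.997). *Mir155hg* was at 1727, 2098 and 2090 normalized counts in WT libraries and 1646, 2085 and 3828 in hnRNPL-deficient libraries. It was followed by *Gm43768* (r = 0.996) and *Gm28791* (r = 0.995). All 3 were highest in hnRNPL-deficient library 3, as *Ptbp2* was, and none was called.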

How the data were processed

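Libraries were grouped by the submitters' labels. The authors aligned poly(A)-selected, paired-end reads to mm10 with STAR 2.7.9a, counted them per gene with featureCounts, strand-specifically, and scaled each library by its DESeq2 size factor. What they deposited is thus a signal, the normalized count of a gene in a library. The authors' own fold changes and p-values in the same table were not used. Division by the smallest value of each column gave whole reads (100% of values within 0.001). The automatic check did not accept hnRNPL-deficient library 2, so count tests were run on the other 5 libraries and, chosen after seeing the data, on all 6.

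The main test was limma 3.58.1 of log2-transformed values (pseudocount 1), with a trend of variance on mean and Benjamini-Hochberg adjustment over all genes tested. A fold change on this scale understates that of low genes. edgeR 4.0.16 and DESeq2 1.42.0 were alternatives, and scripts were tested on simulated data. Levels per kb used GENCODE M21 on GRCm38, which matched 55240 of 55421 identifiers without version, whereas the authors used a later release.

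Members and gene lists were chosen with earlier results of these data known. Genes are named by a rule: members, called genes of each list and up to 3 others by highest mean, the 2 nearest tested genes on each side, and the 3 most similar by r. Some genes that the rule names are not reported here.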

Additional observations from a re-analysis of the deposited data

How the results depend on the processing

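*Hnrnpl* was called lower and no paralog was called under any of 18 alternatives each. Leaving out 1 library at a time gave 850 to 1124 genes called higher and 483 to 695 lower, against 1284 and 719, with the fewest higher calls without WT library 3. A 2-fold limit at an adjusted p under 0.05 gave 610 and 216. edgeR and DESeq2 on 5 libraries called 1072 and 1192 genes higher and 707 and 746 lower, and on all 6 libraries 1452 and 1502 higher and 669 and 817 lower. The log2 fold change of *Ptbp2* ranged from -0.11 to 0.53 with 1 library left out, and that of *Ptbp3* from -0.11 to 0.11. The sign of *Ptbp3* also turned with equal library totals (0.047), quantile normalization (0.084), edgeR (0.078) and DESeq2 (0.091) on 5 libraries, and edgeR on all 6 (0.021), and the cause was not tested. The paralog level, the family level and the *Ptbp1* share kept their direction under all 11 alternatives each. For the share, equal library totals and the replicate block cannot change the difference of 6.20 percentage points. *Hnrnpl*, the deleted gene, enters the family level and the share, so their direction says little about the paralogs. With 1 library left out the paralog difference ranged from -10.1% to -2.51% and the share difference from 3.16 to 7.80 percentage points. Same-numbered libraries deviated together with r = 0.429, 0.320 and 0.0663, and those of different number with r between -0.458 and 0.305. Only WT library 3 correlated best with another number, that of hnRNPL-deficient library 2. The labels do not say whether the numbers mark pairs or batches, the main test used no block, and the part of such a batch was not tested. With the replicate number as a block, 1755 genes were called higher and 1018 lower. The *Ptbp1* log2 fold change of -0.20 then had an adjusted p of 0.112 (limma), with a standard error of 0.083 against 0.114 without the block. Depth limits *Hnrnpll*, which rests on under 100 reads per library.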
